A study of Mus musculus with 7 samples.

Results

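Lysosomal enzymes and membrane proteins form a set of 36 genes, chosen by name from a fixed list of cathepsins, other acid hydrolases, their cofactors, membrane proteins of the lysosome and the regulator *Tfeb*. All 36 were found among the 52550 genes counted, and all 36 were among the 20128 genes that passed the expression filter. Of these, 10 are cathepsins and 26 are not. They were followed in total RNA-seq of whole retina from SCA7 (spinocerebellar ataxia type 7) knock-in mice, a model of a neurodegenerative disorder with loss of vision. WT denotes the 4 mice with normal *Atxn7*, and SCA7 denotes the 3 homozygous SCA7 knock-in mice (SCA7_KI_homo in the labels). Both *Atxn7* alleles of the SCA7 mice carry an expanded CAG repeat that encodes 140 glutamines, at the gene's own locus and under its own promoter. All 7 mice were of the C57BL/6J strain and 12.5 weeks old, and the 2 retinas of a mouse were pooled into its library. The sex of the mice is not given in the labels.

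Lysosomes are acidic organelles in which hydrolases break down proteins, glycans and lipids delivered by endocytosis, phagocytosis and autophagy. Cathepsins are their proteases, the saposins and GM2 activator present lipids to the hydrolases, and LAMP proteins line the lysosomal membrane, while TFEB and its relatives bind CLEAR elements, sequences with a CACGTG core, in the promoters of many of these genes. In the retina, microglia digest cell debris in their lysosomes and the neighbouring pigment epithelium digests shed outer segments.

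Promoter sequences of some listed genes, picked as neighbours or for a motif match, were read from RefSeq (assembly GRCm38.p6). In the table of promoters used, 32 of the 36 genes were matched, all but *Ctsb*, *Ctsh*, *Asah1* and *Npc1*. The neighbouring genes *Ctsk* and *Ctss* changed in opposite directions, so their promoters are shown from upstream to 30 bases past the start site, at chr3:95498960-95499239 and chr3:95526536-95526815, both on the plus strand. A shorter stretch is shown for *Ctsc* (chr7:88277908-88277967, plus strand). Capitals mark a match to GAGGAAGT on either strand, a core bound by the myeloid factor PU.1 and other ETS proteins. In *Ctss* the match begins 2 bases before the start site.

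Ctsk: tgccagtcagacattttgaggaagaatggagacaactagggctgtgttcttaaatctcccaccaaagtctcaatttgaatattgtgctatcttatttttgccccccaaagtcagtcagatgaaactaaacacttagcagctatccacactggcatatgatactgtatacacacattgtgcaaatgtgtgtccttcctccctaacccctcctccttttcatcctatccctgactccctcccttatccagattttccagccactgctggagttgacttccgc
Ctss: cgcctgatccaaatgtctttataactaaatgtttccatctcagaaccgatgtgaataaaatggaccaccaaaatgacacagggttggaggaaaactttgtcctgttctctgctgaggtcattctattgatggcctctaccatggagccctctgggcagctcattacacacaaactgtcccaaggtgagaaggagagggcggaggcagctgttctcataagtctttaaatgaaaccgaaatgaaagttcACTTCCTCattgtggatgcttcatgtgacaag
Ctsc: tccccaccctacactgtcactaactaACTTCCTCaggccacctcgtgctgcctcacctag

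The next stretches belong to the 4 genes with a match to TCACGTGAC, a core of the CLEAR element that contains CACGTG, again in capitals and on either strand. They lie at chr2:164833733-164833793 for *Ctsa* and chr8:3500447-3500507 for *Mcoln1* on the plus strand, and at chr7:142387892-142387952 for *Ctsd* and chrX:134601167-134601227 for *Gla* on the minus strand. In *Ctsa* 2 matches stand side by side. *Mcoln1* also holds a CACGTG outside the longer match, in lower case at the upstream end.

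Ctsa: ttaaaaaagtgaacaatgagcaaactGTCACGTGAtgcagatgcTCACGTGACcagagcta
Ctsd: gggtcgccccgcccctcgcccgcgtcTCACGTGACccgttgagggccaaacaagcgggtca
Mcoln1: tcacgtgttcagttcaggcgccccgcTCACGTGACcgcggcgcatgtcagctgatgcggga
Gla: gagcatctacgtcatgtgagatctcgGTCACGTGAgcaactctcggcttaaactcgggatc

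Totals on genes lay between 56497675 and 96635832 counts per library, and a single count equalled between 0.00972 and 0.0188 CPM (counts scaled to the library total after TMM). The listed genes held between 183 and 107888 counts in a library, so none was near the limit of detection. The composition of the libraries differed by genotype, with TMM factors from 0.890 to 0.974 for WT libraries and from 1.07 to 1.09 for SCA7 libraries. The 8 rod markers, rhodopsin among them, were all downregulated, and their summed level ran from 59820 to 61962 CPM in WT but only from 15725 to 20418 CPM in SCA7. CPM values after TMM are relative levels and not amounts per retina. In whole retina fewer cells of a type and less RNA per cell cannot be told apart.

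SCA7 was compared with WT to find which lysosomal genes changed in the diseased retina. A gene was called upregulated at an adjusted p value under 0.05 (edgeR's quasi-likelihood test, Benjamini-Hochberg over all genes tested) with a fold change (FC, SCA7/WT) above 1.3, and downregulated at the same adjusted p with an FC under 0.7. Of the 36 genes, 11 were upregulated (30.6%), beside 7.47% of all genes tested. They were the proteases *Ctss*, *Ctsc*, *Ctsz*, *Ctsh* and *Lgmn*, the glycosidases *Gusb*, *Man2b1* and *Glb1*, progranulin (*Grn*), and the membrane proteins *Laptm5* and *Cd63*. *Ctsk* was the only listed gene downregulated, beside 7.91% of all genes. A further 10 genes were higher at an adjusted p under 0.05 with an FC inside the limits, so 21 passed the test upwards, beside 14.2% of all genes. *Gla* was lower inside the limits, which made 2 that passed downwards, beside 14.2% of all genes. The other 13 did not pass.

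By library, 25 of the 36 genes had every SCA7 library above every WT library, beside 19.3% of all genes, and 2 had every SCA7 library below, beside 18.3% of all genes. In 9 the groups overlapped. The median log2 FC of the 36 genes was 0.24, against -0.02 over all genes tested, with quartiles of -0.26 and 0.17. Their summed level was between 3940 and 4327 CPM in WT and between 4835 and 4918 CPM in SCA7, a ratio of 1.18. For 19 of the genes an exact two-sided permutation test of single values gave 0.0286, the smallest p that 4 against 3 libraries allow, beside 23.8% of all genes in either direction.

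The number of calls depends on the scaling. With total counts in place of TMM factors, the median log2 FC of all genes moved from -0.02 to 0.17, and 22 of the listed genes and 18.3% of all genes were upregulated. *Ctsk* (log2 FC -1.07) and *Gla* (-0.21) were lower with total counts too.

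**Figure D1:**
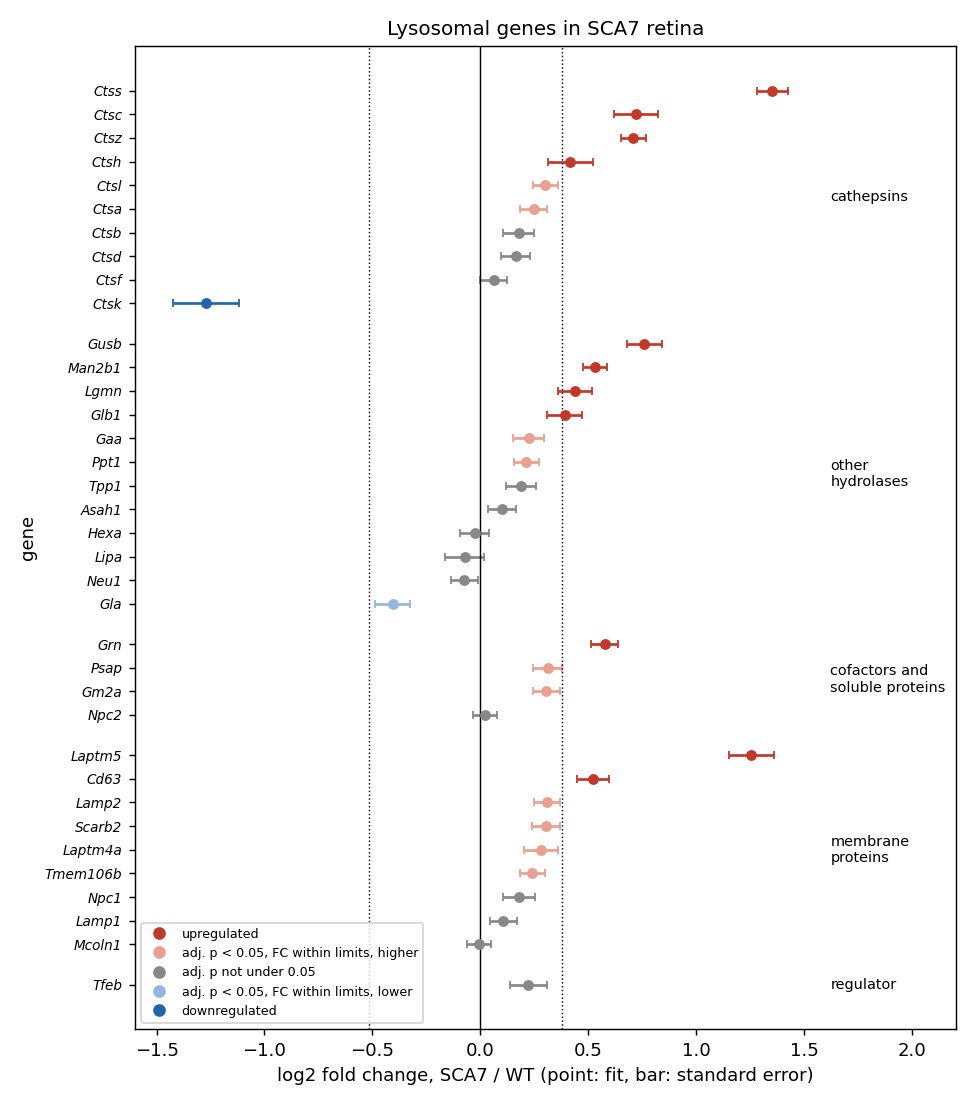
Log2 FC (SCA7/WT, x axis) of the 36 lysosomal genes by function, with points for the fitted value, bars for its standard error and dotted lines at the FC limits of 0.7 and 1.3. *Ctss* and *Laptm5* lie farthest to the right at 1.35 and 1.26, *Ctsk* stands alone on the left at -1.27, and most of the others lie between 0 and the upper limit.

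Among the 10 cathepsins 4 were upregulated, 1 was downregulated, 2 were higher inside the limits and 3 did not pass. *Ctss*, the protease of antigen-presenting cells that trims the invariant chain of MHC class II, rose most. Its level was 17.3, 15.1, 17.9 and 16.1 CPM in the WT libraries and 41.1, 45.3 and 40.7 CPM in the SCA7 libraries. The groups were far apart, and the mean went from 16.6 ± 1.22 (SD, n = 4) to 42.4 ± 2.56 CPM (SD, n = 3). On the log2 scale the change was 1.35 (SE 0.07, adjusted p = 1.8e-07 by edgeR).

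*Ctsc*, the dipeptidyl peptidase that activates granule serine proteases, was at 14.7, 13.9, 17.0 and 11.8 CPM in WT and at 24.3, 23.7 and 22.8 CPM in SCA7. *Ctsz*, a carboxypeptidase, was at 37.9, 38.0, 41.4 and 36.2 CPM in WT and at 62.6, 63.9 and 61.6 CPM in SCA7. In both genes the SCA7 libraries lay close together and well above WT, with log2 FC of 0.72 (SE 0.10, adjusted p = 2.5e-04) for *Ctsc* and 0.71 (SE 0.06, adjusted p = 4.6e-06) for *Ctsz*. *Ctsh*, an aminopeptidase, was at 20.6, 16.6, 21.9 and 16.2 CPM in WT and at 24.1, 24.9 and 26.3 CPM in SCA7. Here the WT libraries fell into a lower and a higher pair, and the highest of them came within a few CPM of SCA7. The log2 FC of *Ctsh* was 0.42 (SE 0.10, adjusted p = 0.010). Its FC fell under 1.3 without WT replicate 2 (log2 FC 0.36), without WT replicate 4 (0.35), with the replicate number as a block (0.36) and with *Xist* as a covariate (0.38), while the adjusted p stayed under 0.05 in each.

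*Ctsk*, the collagen-degrading protease best known from osteoclasts, went the other way. Its level was 9.96, 9.31, 12.4 and 7.34 CPM in WT and 3.72, 3.996 and 4.36 CPM in SCA7, so every SCA7 library was below every WT library although the WT libraries were spread. The log2 FC was -1.27 (SE 0.15, adjusted p = 1.0e-04), between -1.38 and -1.13 with any single library left out. Markers of bone or connective tissue, *Mmp9*, *Col1a1*, *Col1a2*, *Dcn* and *Lum*, were not called by edgeR, DESeq2 or limma-voom (0 of 5 tested, 1 with an unadjusted p under 0.05 by edgeR). All 5 log2 FC were below 0, between -0.62 (*Dcn*) and -0.11 (*Col1a2*), with SE from 0.10 (*Mmp9*) to 0.57 (*Lum*). *Acp5* was not tested. The sum of these 6 markers was between 25.7 and 34.0 CPM in WT and between 20.2 and 27.4 CPM in SCA7. Markers of the pigment epithelium, a layer next to the retina, fell in 4 of 8 cases (*Rpe65*, *Ttr*, *Lrat* and *Rgr*), while *Slc6a20a* (log2 FC -0.53), *Best1* (0.08), *Tyr* (0.14) and *Mlana* (0.56) did not pass. The sum of the 8 was between 104 and 214 CPM in WT and between 19.7 and 48.4 CPM in SCA7. The part of these cell types in the change of *Ctsk* was not tested.

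*Ctsk* (chr3:95499256-95509362) and *Ctss* (chr3:95526786-95556403) are neighbours on the plus strand of GRCm38, 17423 bases apart with 0 annotated genes between them. Per kb of transcript, the level of *Ctss* relative to *Ctsk* was 1.94, 1.81, 1.605 and 2.45 in the WT libraries and 12.3, 12.7 and 10.4 in the SCA7 libraries. In WT retina the neighbours were thus within a few fold of each other, and in SCA7 *Ctss* was about an order of magnitude above *Ctsk*. *Arnt*, the next gene on the far side of *Ctsk*, had a log2 FC of 0.02 (SE 0.08, adjusted p = 0.89), and *Hormad1*, on the far side of *Ctss*, had 0 CPM. An exact GAGGAAGT match was in the promoter of *Ctss* but not in that of *Ctsk*, which holds gaggaaga, different in the last letter only. The motif was chosen after the values were seen, and its part in the 2 changes was not tested.

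Of the other cathepsins, *Ctsl*, a broad endopeptidase, and *Ctsa*, which also protects beta-galactosidase and sialidase, rose inside the limits. Their log2 FC were 0.30 (adjusted p = 0.0025) and 0.25 (adjusted p = 0.012). The test of *Ctsa* did not pass without SCA7 replicate 2 (adjusted p = 0.066) or without SCA7 replicate 3 (0.054). The abundant proteases *Ctsb* and *Ctsd* did not pass by edgeR with TMM scaling. *Ctsb* was at 454, 494, 524 and 441 CPM in WT and at 524, 546 and 550 CPM in SCA7, where the lowest SCA7 library was level with the highest WT library. *Ctsd* was at 271, 287, 309 and 277 CPM in WT and at 308, 326 and 327 CPM in SCA7, with overlap. The log2 FC of *Ctsb* was 0.18 (SE 0.07, adjusted p = 0.093) and that of *Ctsd* was 0.16 (SE 0.07, adjusted p = 0.084). Without WT replicate 3, the highest WT library for both, the adjusted p was 0.011 for *Ctsb* and 0.012 for *Ctsd*, and by the DESeq2 Wald test it was 0.042 and 0.031. *Ctsf* was at 0.06 (SE 0.06, adjusted p = 0.49). With total counts as scaling these genes passed by edgeR, while the median log2 FC of all genes moved to 0.17. Their log2 FC were then 0.37 for *Ctsb* (adjusted p = 8.9e-04), 0.36 for *Ctsd* (adjusted p = 6.5e-04) and 0.25 for *Ctsf* (adjusted p = 0.0054).

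**Figure D2:**
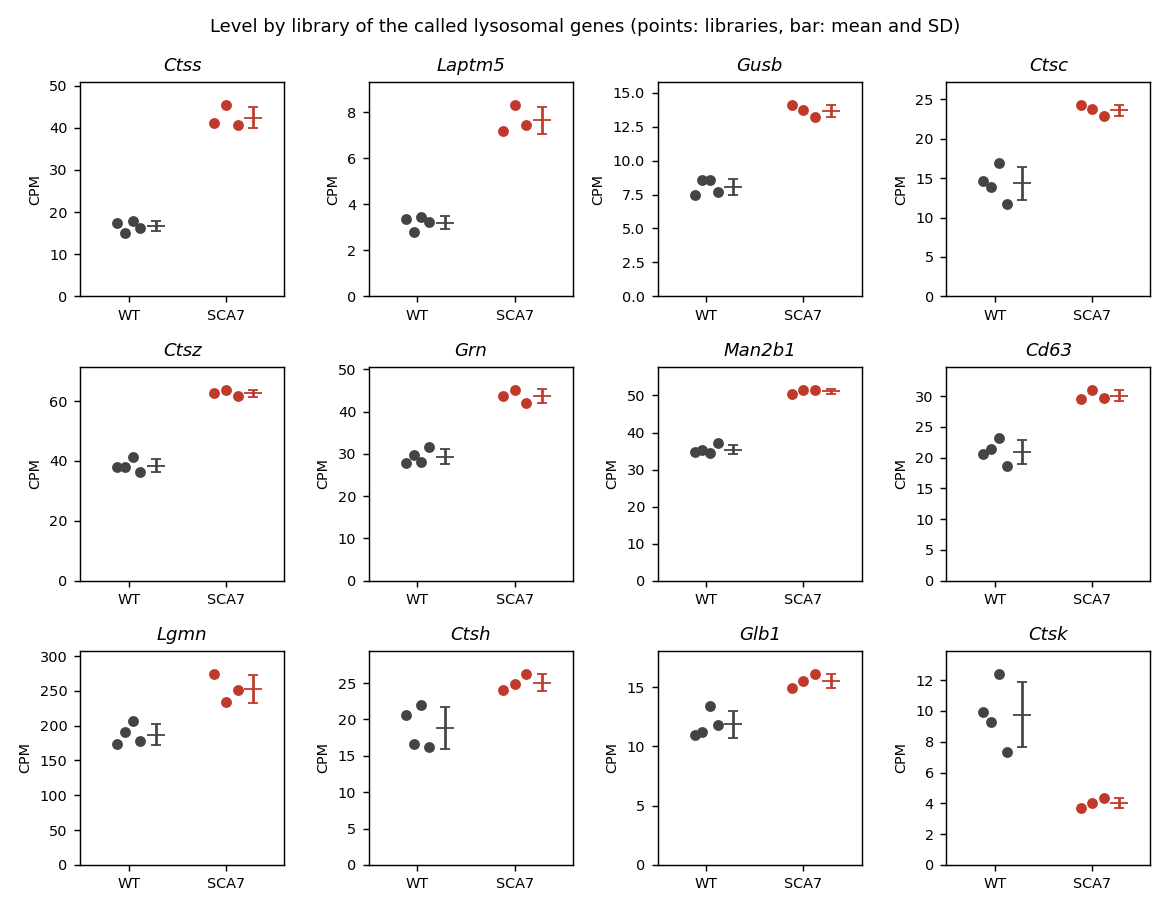
Level in CPM (y axis, from 0) of the 11 upregulated genes and of *Ctsk* in each WT (n = 4) and SCA7 (n = 3) library, with points for libraries and bars for the mean and SD. In each of the 12 panels the genotypes do not overlap, and the gap is narrowest against the spread in *Ctsh* and *Glb1*.

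Among the 12 other hydrolases 4 were upregulated, 2 were higher inside the limits, 1 was lower and 5 did not pass, with a median log2 FC of 0.20. *Gusb*, beta-glucuronidase, was at 7.43, 8.56, 8.59 and 7.69 CPM in WT and at 14.1, 13.7 and 13.2 CPM in SCA7. *Man2b1*, the lysosomal alpha-mannosidase, was at 34.7, 35.4, 34.4 and 37.1 CPM in WT and at 50.4, 51.6 and 51.4 CPM in SCA7. Both groups were tight for these genes, and the log2 FC were 0.76 (SE 0.08, adjusted p = 2.7e-05) for *Gusb* and 0.53 (SE 0.05, adjusted p = 2.3e-05) for *Man2b1*. *Lgmn*, the asparaginyl endopeptidase that processes cathepsins to their mature chains, was the most abundant of the upregulated genes by CPM. It was at 174, 191, 207 and 177 CPM in WT and at 275, 234 and 251 CPM in SCA7, with a log2 FC of 0.44 (SE 0.08, adjusted p = 0.0014). Without SCA7 replicate 1, the highest library, it was 0.38 (adjusted p = 0.013), just under the FC limit.

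*Glb1*, beta-galactosidase, lay at the FC limit. Its level was 10.95, 11.2, 13.4 and 11.8 CPM in WT and 14.9, 15.5 and 16.1 CPM in SCA7, and its log2 FC was 0.39 (SE 0.08, adjusted p = 0.0040). The FC fell under 1.3 without WT replicate 1 (log2 FC 0.35), without WT replicate 2 (0.36), without SCA7 replicate 3 (0.36) and with *Xist* as a covariate (0.37), again with the adjusted p under 0.05. *Gaa*, which degrades glycogen, and *Ppt1*, which removes palmitate from proteins, rose inside the limits with log2 FC of 0.22 (adjusted p = 0.034) and 0.21 (adjusted p = 0.017). With each library left out in turn, *Gaa* passed the adjusted p in 3 of 7 fits and *Ppt1* in 4 of 7. *Gaa* did not pass without WT replicate 1 or 2 or without SCA7 replicate 1 or 3 (adjusted p up to 0.15), nor *Ppt1* without any of the SCA7 libraries (up to 0.086).

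*Gla*, the X-linked alpha-galactosidase A, fell. It was at 32.3, 39.0, 40.5 and 34.2 CPM in WT and at 27.8, 26.5 and 28.3 CPM in SCA7, with no overlap. The log2 FC was -0.41 (SE 0.08, adjusted p = 0.0030), and -0.43 with *Xist* as a covariate for the sex of the mice. *Hexa*, *Asah1*, *Neu1*, *Tpp1* and *Lipa* did not pass, with log2 FC between -0.07 and 0.19. *Tpp1*, a tripeptidyl peptidase, was closest at an adjusted p of 0.057, and passed without WT replicate 2 (0.039), without WT replicate 4 (0.043) and by the DESeq2 Wald test (0.041).

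Of the 4 cofactors and soluble proteins 1 was upregulated and 2 rose inside the limits. *Grn*, the precursor of the granulins, was at 27.7, 29.7, 28.1 and 31.6 CPM in WT and at 43.7, 45.2 and 42.0 CPM in SCA7. The groups were well separated, with a log2 FC of 0.57 (SE 0.06, adjusted p = 4.2e-05). *Psap*, the precursor of the saposins and the most abundant listed gene by CPM, went from 840 ± 40.4 (SD, n = 4) to 1042 ± 29.7 CPM (SD, n = 3). That was a log2 FC of 0.31 (adjusted p = 0.0049). *Gm2a*, the GM2 activator, also had 0.31 (adjusted p = 0.0028), and *Npc2*, which hands over cholesterol, had 0.02 (adjusted p = 0.80).

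Of the 9 membrane proteins 2 were upregulated, 4 rose inside the limits and 3 did not pass. *Laptm5*, a lysosomal protein of blood-derived and microglial cells, was at 3.35, 2.80, 3.43 and 3.24 CPM in WT and at 7.18, 8.30 and 7.43 CPM in SCA7. More than a doubling separated the groups, with a log2 FC of 1.26 (SE 0.10, adjusted p = 4.3e-06). *Cd63*, a tetraspanin of late endosomes, was at 20.6, 21.4, 23.2 and 18.6 CPM in WT and at 29.4, 31.1 and 29.6 CPM in SCA7, with a log2 FC of 0.52 (SE 0.08, adjusted p = 3.2e-04). The structural proteins of the membrane moved less. *Lamp2*, which also acts in chaperone-mediated autophagy and is X-linked, was at 105, 110, 115 and 101 CPM in WT and at 137, 132 and 132 CPM in SCA7, with a log2 FC of 0.31 (SE 0.06, adjusted p = 0.0026). *Lamp1* was at 240, 264, 250 and 242 CPM in WT and at 259, 270 and 274 CPM in SCA7, where the groups overlapped (log2 FC 0.11, SE 0.06, adjusted p = 0.22).

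*Scarb2*, the carrier of glucocerebrosidase, had a log2 FC of 0.30 (adjusted p = 0.0048), *Laptm4a* 0.28 (adjusted p = 0.018) and *Tmem106b* 0.24 (adjusted p = 0.0093). All 3 passed the test inside the limits, *Scarb2* in 7 of 7 fits with a library left out, *Tmem106b* in 6 (not without SCA7 replicate 1, adjusted p = 0.055) and *Laptm4a* in 3 (not without WT replicate 2 or any of the SCA7 libraries, up to 0.064). The cholesterol transporter *Npc1* (log2 FC 0.18, adjusted p = 0.089) and the calcium channel *Mcoln1* (-0.01, adjusted p = 0.94) did not pass. *Npc1* passed without WT replicate 4 (adjusted p = 0.026) and with *Xist* as a covariate (0.0073). *Tfeb*, the transcription factor of the list, was at 6.83, 6.42, 6.86 and 6.32 CPM in WT and at 7.09, 8.04 and 7.96 CPM in SCA7. Its SCA7 libraries were all above WT by a small margin, and its log2 FC of 0.22 (SE 0.09, adjusted p = 0.075) did not pass.

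Cathepsins were set beside the other listed genes. Upregulated were 4 of 10 cathepsins (40.0%) and 7 of 26 others (26.9%), beside 7.47% of all genes, and the median log2 FC were 0.27 and 0.23. Without the FC threshold 6 cathepsins (60.0%) and 15 others (57.7%) were higher, beside 14.2% of all genes. With total counts as scaling 6 cathepsins and 16 others were upregulated, beside 18.3% of all genes. The gap between the shares thus depends on the threshold and the scaling. Summed, the cathepsins were between 1240 and 1403 CPM in WT and between 1478 and 1542 CPM in SCA7, a ratio of 1.17. The others were between 2687 and 2924 CPM in WT and between 3294 and 3425 CPM in SCA7, a ratio of 1.19. The log2 FC of the cathepsins ran from -1.27 (*Ctsk*) to 1.35 (*Ctss*), with the other 8 between 0.06 and 0.72, and that of the others ran from -0.41 (*Gla*) to 1.26 (*Laptm5*). These shares and medians were not compared by a test.

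The level of a gene in WT retina was compared per length, as RPK (scaled counts per kb of the median transcript length). The 11 upregulated genes had a median of 1191 RPK and the other 25 genes a median of 5073 RPK. With the summed length of all exons instead, the medians were 304 and 1315 RPK. On either length the upregulated genes thus sat lower, but both groups ran across most of the range, from 314 to 7036 RPK for the former and from 445 to 26008 RPK for the latter on the median transcript length. *Ctsb*, *Psap*, *Ctsf*, *Tmem106b* and *Ctsl* were highest on the median transcript length, and *Psap*, *Ctsd*, *Lamp1*, *Lgmn* and *Ctsb* on all exons. The order of single genes thus depends on the length used. Across the 36 genes, Spearman's rho between WT level and log2 FC was -0.24, a description only, since all points come from the same libraries.

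**Figure D3:**
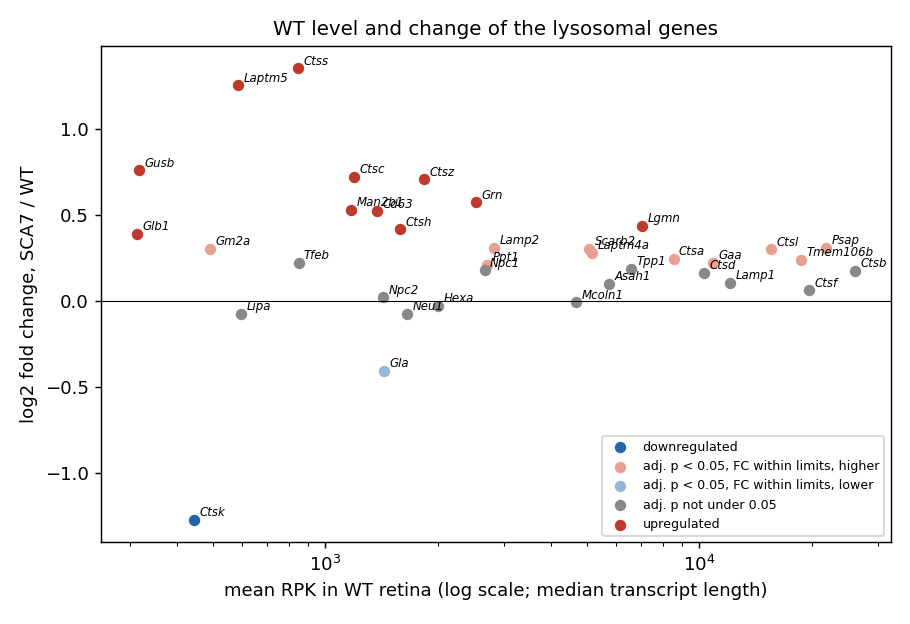
Mean level of the 36 genes in WT retina (RPK on the median transcript length, log scale, x axis) against their log2 FC (y axis), with a point for each gene coloured by its call. Upregulated genes lie mostly to the left, with a median of 1191 RPK, and none of the 5 genes farthest to the right was called.

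The calls were set beside 86 further lysosomal genes, listed by function, of which 78 were tested. Among these 9 were upregulated (11.5%, beside 7.47% of all genes), 1 was downregulated, 17 were higher and 5 lower inside the limits, and 46 did not pass. The median log2 FC was 0.11. The 9 include *Cst7*, whose call is a description only, as given below. With at least 10 counts asked in every library, 77 genes remained and 8 were upregulated, beside 7.58% of all genes. With total counts as scaling 27 were upregulated, beside 18.3% of all genes. Of the 22 further hydrolases tested 6 were upregulated (27.3%, beside 7.47% of all genes) and 9 were higher inside the limits, with a median of 0.26. The 3 largest were *Galns*, a sulfatase of keratan sulfate (log2 FC 0.98, adjusted p = 8.2e-06), *Manba*, beta-mannosidase (0.68, adjusted p = 4.7e-04), and *Ctso*, another cathepsin (0.67, adjusted p = 3.7e-04). The membrane proteins of this list held 1 call in each direction. *Cd68*, a macrophage and microglial relative of the LAMP proteins, rose by 1.31 (adjusted p = 1.7e-04) on the log2 scale. *Lamp3* was at 7.06, 8.05, 9.81 and 7.10 CPM in WT and at 3.48, 3.63 and 2.85 CPM in SCA7, a log2 FC of -1.27 (adjusted p = 3.5e-05). Its groups did not overlap.

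The proton pump that acidifies the lysosome had 0 calls among 18 tested subunits by edgeR, DESeq2 and limma-voom, beside 7.47% of all genes upregulated and 7.91% downregulated, shares at which few calls would fall among 18 genes. By edgeR 2 subunits were higher and 1 was lower inside the limits, and the same numbers had an unadjusted p under 0.05. The median log2 FC was 0.02. Of the 9 sorting and activation genes, *Cln6* was upregulated (0.41, adjusted p = 6.7e-04). Of the 4 inhibitors of cathepsins, *Cst7*, cystatin F, was called upregulated, at 0.0854, 0.0140, 0.0563 and 0.107 CPM in WT and at 0.991, 1.57 and 1.24 CPM in SCA7. It had between 1 and 7 counts in a WT library and passed the expression filter only through its SCA7 libraries, so its call and the size of its change are a description. It was the only gene of the 78 with under 10 counts in any library. Among the 9 tested relatives and upstream regulators of TFEB 0 were called by edgeR, DESeq2 and limma-voom, again too few genes to read against the shares of all genes, and 5 had an unadjusted p under 0.05 by edgeR. Of these, *Tfe3* (0.29, adjusted p = 0.010), *Rraga* (0.18, adjusted p = 0.039) and *Flcn* (-0.20, adjusted p = 0.034) passed inside the limits.

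**Figure D4:**
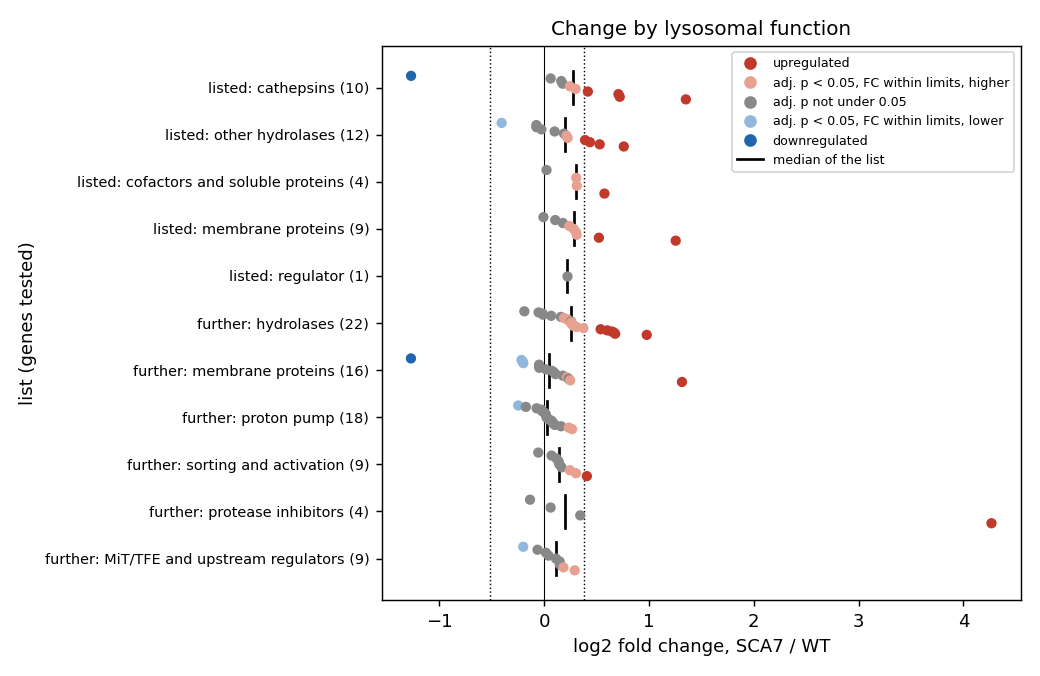
Log2 FC (SCA7/WT, x axis) of the 36 listed genes and 78 further lysosomal genes tested, with a point for each gene, black bars for the medians and dotted lines at the FC limits. Hydrolases of both lists reach past the upper limit with medians of 0.20 and 0.26, the proton pump stays around its median of 0.02, and the point far to the right is *Cst7*, which has between 1 and 7 counts in a WT library, too few to size its change.

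Markers of other cells moved with these genes. All 12 microglia markers were upregulated, with log2 FC between 0.74 and 1.53 and a median of 1.07, and none of them was at 0. Their sum was between 50.4 and 65.5 CPM in WT and between 125 and 140 CPM in SCA7, a ratio of 2.25. *Ctss* and *Laptm5*, known from microglia, had log2 FC inside this range, as did *Gusb* near its lower end. The other 8 upregulated genes lay below it, between 0.39 (*Glb1*) and 0.72 (*Ctsc*). All 6 genes listed for gliosis and injury signals were upregulated too (*Gfap*, *Serpina3n*, *Edn2*, *Lif*, *Fgf2* and *C4b*, median log2 FC 2.88). Of 8 Müller glia markers 0 were called by edgeR, DESeq2 or limma-voom. Over all genes 7.47% were upregulated and 7.91% downregulated by edgeR, so these 8 markers are too few to read against the shares. By edgeR 3 of them were higher and 1 was lower inside the limits, the same numbers as at an unadjusted p under 0.05. Of 6 further macrophage markers 0 were upregulated by edgeR and DESeq2 and 1 by limma-voom, with 0 higher at an unadjusted p under 0.05 by edgeR. By edgeR *Cd163* (log2 FC -2.27) and *F13a1* (-1.59) were downregulated, and *Mrc1* (-1.79), *Lyz2* (0.90), *Ms4a7* (0.58) and *Ccr2* (0.54) did not pass. DESeq2 and limma-voom each called 3 downregulated. Only 3 of the 6 had at least 10 counts in every library. *Cd163* had between 4 and 11 counts in an SCA7 library and *F13a1* between 9 and 36, so both calls are descriptions. The 6 markers summed to 10.8 CPM in WT replicate 1, between 4.15 and 4.56 CPM in the other WT libraries and between 5.17 and 9.13 CPM in SCA7. Of the 6 endothelial markers 2 were upregulated (*Cdh5* and *Kdr*), *Tek* was higher inside the limits (log2 FC 0.25, adjusted p = 0.034), *Cldn5* was lower inside the limits (-0.48, adjusted p = 0.011), and *Pecam1* and *Esam* did not pass (-0.01 and -0.23). The part of these cells in the changes of the lysosomal genes was not tested.

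Motif matches were counted in the 32 listed genes matched in the promoter table, which have 37 promoters in it and of which 10 were upregulated (31.2%). CACGTG, on either strand, was in 10 of the 37 promoters, each of another gene (*Ctsa*, *Ctsd*, *Ctsf*, *Ctsl*, *Gaa*, *Gla*, *Glb1*, *Lamp1*, *Lgmn* and *Mcoln1*), and in 7.15% of the 32851 promoters of the same length. Of these 10 genes, 2 were upregulated, *Glb1* and *Lgmn*. The longer TCACGTGAC, in 0.782% of all promoters, was in *Ctsa*, *Ctsd*, *Gla* and *Mcoln1*, of which 0 were upregulated. GAGGAAGT, in 3.2% of all promoters, was in *Ctsc*, *Ctss*, *Gusb* and *Gla*, of which 3 were upregulated. These few genes allow no reading of the calls by motif. The motifs were chosen after the values were seen, and a match is a stretch of letters and not a measured binding site.

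Some reads may belong to overlapping genes. An annotated gene overlaps 14 of the 36, on the opposite strand in 11 and on the same strand in 4, and 5 of the 12 called genes are among them (*Ctsc*, *Ctss*, *Ctsz*, *Glb1* and *Grn*). The libraries kept the strand, but whether the counting used it is not given in the sources used here.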

How the data were processed

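Total RNA of 7 mouse retina samples (4 WT and 3 SCA7) was depleted of ribosomal RNA by the authors and sequenced as stranded single-read libraries. Per the submitters' processing notes, reads were mapped to mm10 with TopHat2 (2.0.14) and Bowtie2 (2.1.0) and counted with HTSeq (0.6.1). The authors deposited raw counts per Ensembl gene, which are whole numbers without normalization. Each library is a separate mouse. Totals lay between 56497675 and 96635832 counts per library, and errors are SDs between mice or standard errors from the fitted model.

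Genes were filtered with filterByExpr, scaled by TMM and compared by the quasi-likelihood test of edgeR 4.0.16 (glmQLFit with robust estimation, limma 3.58.1, R 4.3.3), without covariates, with Benjamini-Hochberg adjustment over 20128 genes. Positions came from GENCODE M21 (GRCm38). RPK used DESeq2 1.42.0 size factors. For exact permutation tests 0.01 CPM was added before taking log2. The alternatives were DESeq2 size factors, the DESeq2 Wald test, limma-voom, other count filters (at least 1 count in any library, or 10 in every library), a replicate block, *Xist* as a covariate, calls without the FC threshold or at an adjusted p under 0.01, and fits with any single library left out, while total counts as scaling was added after seeing the data. The steps were tested on simulated counts.

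The listed genes and the other lists were chosen with earlier results of these data known. Values by library are given for the called genes and for *Ctsb*, *Ctsd*, *Lamp1*, *Lamp2* and *Tfeb*, and also for *Gla*, added after its values were seen. Genes past the adjusted p inside the FC limits are named with their log2 FC, and the remaining ones are given by range or count. Of each further list, the called genes are named, up to the 3 with the largest change. *Tfe3*, *Rraga*, *Flcn*, *Arnt* and *Hormad1* were named after their values were seen.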

Additional observations from a re-analysis of the deposited data

Results flagged for a closer look

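*Ctsl* in the WT libraries was flagged because 1 library stood apart from the other 3 by more than the spread among them allows. WT replicate 4 was at 147.5 CPM, and the other WT libraries were between 160.3 and 161.2 CPM. The SCA7 libraries of *Ctsl* were at 196, 194 and 191 CPM, above all 4. Without WT replicate 4 the adjusted p of *Ctsl* stayed under 0.05, as it did without any other single library. Chance flags about 1 in 20 groups, and the 36 genes each had 1 group that could be flagged.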

How the results depend on the processing

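Over 612 values of single listed genes under the alternatives, 567 kept both their direction and their call as upregulated, downregulated or neither. A further 32 kept the direction only, and 13 had an estimate of the opposite sign. Crossings of the adjusted p limit without a change of call count among the 567. For example, *Ctsa* no longer passed without SCA7 replicate 2 (adjusted p from 0.012 to 0.066 by edgeR). *Ctsb* passed by the DESeq2 Wald test (0.042) but not by edgeR (0.093). The 13 belong to genes that did not pass with TMM scaling. With total counts the log2 FC were 0.17 for *Hexa*, 0.12 for *Neu1*, 0.12 for *Lipa* and 0.18 for *Mcoln1*. *Mcoln1* was also at 0.0064 by the DESeq2 Wald test, 0.014 without the count filter and 0.00016 with the replicate block. With each library left out in turn, the estimates ran from -0.075 to 0.0077 for *Hexa*, from -0.11 to 0.014 for *Lipa* and from -0.039 to 0.033 for *Mcoln1*. With total counts as scaling, 22 listed genes, 16 of them not cathepsins, and 27 further lysosomal genes were upregulated, beside 18.3% of all genes. The median log2 FC with that scaling were 0.46 for the cathepsins and 0.42 for the others, and 31 listed genes and 33.3% of all genes had the smallest permutation p. Without the FC threshold, 21 listed genes (15 not cathepsins) and 26 further lysosomal genes were higher, and 2 and 6 were lower. With the length of all exons, the median RPK of the listed genes was 889 in place of 2599.

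With each library left out in turn, between 9 and 11 listed genes were upregulated and 1 was downregulated. The deviations of same-numbered libraries from their group means correlated at 0.0067, 0.31 and 0.13, not all of them over 0.1, not every library correlated best with its own number, and the labels do not say that a number marks a shared litter or batch, so the numbers were not treated as a pairing. With the replicate number as a block, 10 listed genes were upregulated and 1 was downregulated. The expression of whole retina cannot place a change in a cell type, and 3 SCA7 mice limit what single genes near the FC limits can show.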
